A study of Saccharomyces cerevisiae with 3 samples.

Results

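The genes described here encode 7 yeast enzymes that oxidise aldehydes or formaldehyde: ALD2, ALD3, ALD4, ALD5, ALD6, HFD1 and SFA1. They were taken by gene symbol from the platform annotation, which gives them 14 of 13056 spots, 2 spots a gene, and they make up 7 of the 5539 named genes. On each of 3 two-colour arrays, RNA of a Saccharomyces cerevisiae strain labelled YAP1 mutant (Cy5; a yap1 deletion per the series title) was set against RNA of the wild type (Cy3). Both cultures had been held in 1.0 mM As(III), that is arsenite, for 1 h, so arsenite is common to both sides of every ratio, and unstressed cells were not analysed here. The comparison asks which transcripts depend on YAP1, which encodes a transcription factor of the oxidative stress response, in cells under arsenite. The labels name no strain background, and nothing in them shows whether replicates 1 to 3 came from separate cultures. The spread of these 3 arrays may therefore be technical. Each p-value of the reported setting rests on that spread and on variance borrowed from all genes by the limma fit.

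Aldehyde dehydrogenases turn reactive aldehydes into carboxylic acids and pass the electrons to NAD or NADP. In budding yeast the cytosolic enzyme Ald6 and the mitochondrial enzymes Ald4 and Ald5 oxidise the acetaldehyde that pyruvate decarboxylase makes, which yields acetate for acetyl-CoA, and Ald6 is also a source of cytosolic NADPH. Ald2 and Ald3 are closely similar cytosolic enzymes of stressed and glucose-starved cells that also serve the making of beta-alanine, a precursor of pantothenate. Hfd1 oxidises long-chain fatty aldehydes from sphingolipid breakdown and an aromatic aldehyde on the way to ubiquinone. Sfa1 is a glutathione-dependent formaldehyde dehydrogenase of the alcohol dehydrogenase family, not of the aldehyde dehydrogenase family.

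Values are log2 ratios read as mutant over wild type, the likely direction. That reading rests on the order of the sample titles and on the dyes, since the deposited table does not state it. Should the ratio run the other way, every sign and rank below turns, and genes called lower in the mutant are higher there. The deposited ratios had medians of -0.52, -0.85 and -0.55 on the 3 arrays and fell with brightness, from -0.02, -0.65 and -0.31 in the dimmest 10% of spots to -1.11, -1.19 and -1.33 in the brightest 10%. Each array was therefore adjusted with a loess trend of its ratios against the signal of both channels, which was recovered from the ratios, and the median over all genes was then -0.01. YAP1 itself had adjusted ratios of -0.31, -1.22 and -1.07. Its mean of -0.87 ± 0.18 (limma's moderated SE, n = 3) missed the threshold (limma, adjusted p = 0.0537). Every ± below that is not marked SD is this kind of SE, which borrows variance from all genes. The SD of the YAP1 ratios over the 3 arrays was 0.49. On replicate 1 its spots stood at 0.05 and -0.67, and without that array its mean was -1.15 and passed (limma, adjusted p = 8.11e-04). YAP1 passed in 9 of the 22 alternatives judged at an adjusted p under 0.05, so its call depends on the processing. Among these 9 was the second spot alone (limma, adjusted p = 0.0152). The recovered YAP1 signals, which lack the loess adjustment, were 3747, 5551 and 3964 in the wild-type channel and 1562, 1099 and 844 in the mutant channel. The mutant signals were brighter than 87.7%, 72.4% and 69.1% of spots, although the series title names a deletion. What the YAP1 spots read in the mutant was not tested. Because Cy5 carried the mutant RNA on all 3 arrays, an effect of the dye on a gene and one of the genotype cannot be told apart.

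**Figure D1:**
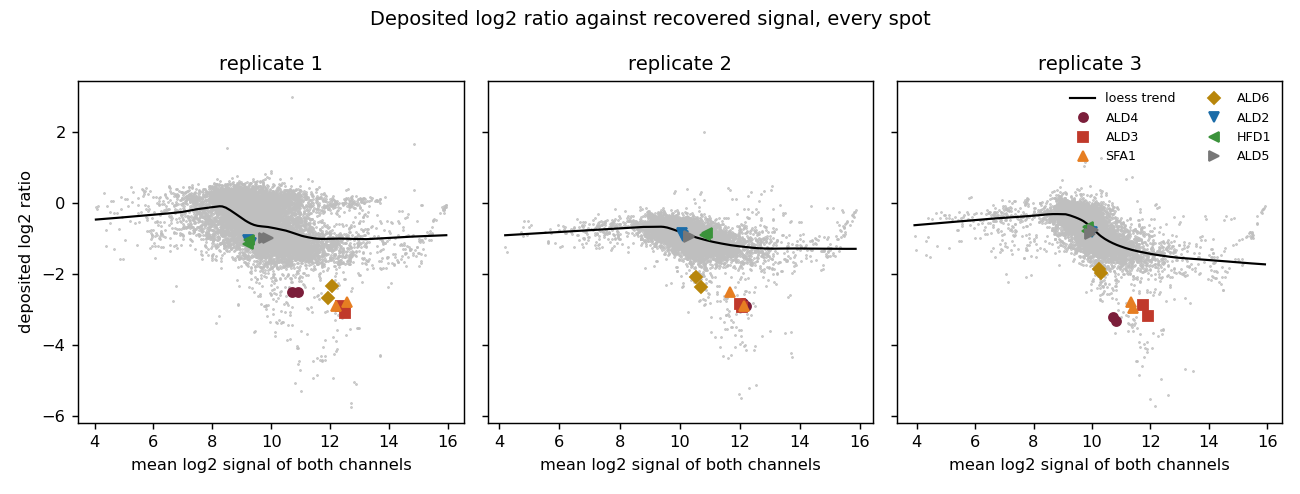
Deposited log2 ratio of every spot (grey) against the mean log2 signal of both channels as recovered from the ratios, 1 panel per array, with the loess trend (black line) and the spots of the 7 dehydrogenase genes. The spots of ALD3, ALD4, ALD6 and SFA1 lie below the trend on all 3 arrays, and those of ALD2, ALD5 and HFD1 lie close to it.

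In the mutant 4 of the 7 genes fell and 0 rose. Their mean log2 ratios were -1.80 for ALD4, -1.76 for ALD3, -1.63 for SFA1 and -1.25 for ALD6. In the same fit 110 of 5539 genes (1.99%) were called lower and 27 (0.487%) higher, at an adjusted p under 0.05; these shares trade places if the ratio is turned. At an unadjusted p under 0.05 there were 1090 genes, 19.7% of all, which is the background for each unadjusted count from this fit given below. ALD2, ALD5 and HFD1 did not pass, nor did any of them have an unadjusted p under 0.05. The division ran within gene pairs and within compartments: 1 of the 2 mitochondrial acetaldehyde dehydrogenase genes fell and 1 did not pass, as was the case for the similar genes ALD3 and ALD2.

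ALD6 (YPL061W), the cytosolic NADP-dependent acetaldehyde dehydrogenase gene, had adjusted ratios of -1.5, -1.23 and -1.0 on replicates 1, 2 and 3. All 3 arrays were below 0. The mean of -1.25 ± 0.14 (limma, moderated SE, n = 3, adjusted p = 0.00226) is a 2.37-fold lower level, with a 95% interval of 1.90 to 2.96-fold. Its spots differed by up to 0.34 on 1 array, the widest gap among the 7 genes.

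ALD4 (YOR374W), the major mitochondrial enzyme of the acetaldehyde pathway, had ratios of -1.65, -1.63 and -2.12. Replicates 1 and 2 were alike and replicate 3 was lower. The mean was -1.80 ± 0.14 (limma, adjusted p = 3.39e-04), a 3.48-fold lower level (95% interval 2.77 to 4.37-fold), and the 26th lowest of all genes (the 26th highest should the ratio run the other way). ALD5 (YER073W), the other mitochondrial member, had -0.32, -0.04 and -0.11, and its mean of -0.16 ± 0.13 missed the threshold (limma, adjusted p = 0.526). The 95% interval of ALD5 ran from -0.45 to 0.13, which leaves out a decrease of the size measured for ALD4. ALD4 minus ALD5 was -1.33, -1.59 and -2.01 on the 3 arrays.

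ALD3 (YMR169C) had ratios of -2.0, -1.66 and -1.62, with every array below every array of ALD6 or of the genes that did not pass. Its mean was -1.76 ± 0.13 (limma, adjusted p = 2.51e-04), a 3.38-fold lower level with a 95% interval of 2.74 to 4.18-fold. ALD2 (YMR170C), which stands next to ALD3 in the order of genes along the chromosome, had -0.53, -0.07 and -0.14. Its mean of -0.24 ± 0.14 did not pass (limma, adjusted p = 0.374), with a 95% interval from -0.56 to 0.07. ALD3 minus ALD2 was -1.47, -1.59 and -1.48 on the 3 arrays, a mean of -1.51 ± 0.07 (SD, n = 3), or 2.86-fold. This difference and that between ALD4 and ALD5 are given as descriptions and were not tested. The spots of these similar genes may read each other's transcripts, which was not tested; their ratios did not overlap on any array.

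SFA1 (YDL168W), the formaldehyde dehydrogenase gene, had ratios of -1.84, -1.49 and -1.56. All 3 were far below 0, with replicate 1 the lowest. The mean was -1.63 ± 0.13 (limma, adjusted p = 3.39e-04), a 3.10-fold lower level with a 95% interval of 2.52 to 3.81-fold. SFA1 lay close to ALD3 on each array, with differences of 0.16, 0.16 and 0.06 between them. Both were lowest on replicate 1, but from replicate 2 to replicate 3 ALD3 rose slightly and SFA1 fell slightly. These shifts were smaller than the largest gap between a gene's spots on 1 array, 0.3 for ALD3 and 0.32 for SFA1. HFD1 (YMR110C), the fatty aldehyde dehydrogenase gene, had -0.56, 0.18 and -0.13, on both sides of 0. Its mean of -0.17 ± 0.16 did not pass (limma, adjusted p = 0.597), and its 95% interval ran from -0.54 to 0.20.

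**Figure D2:**
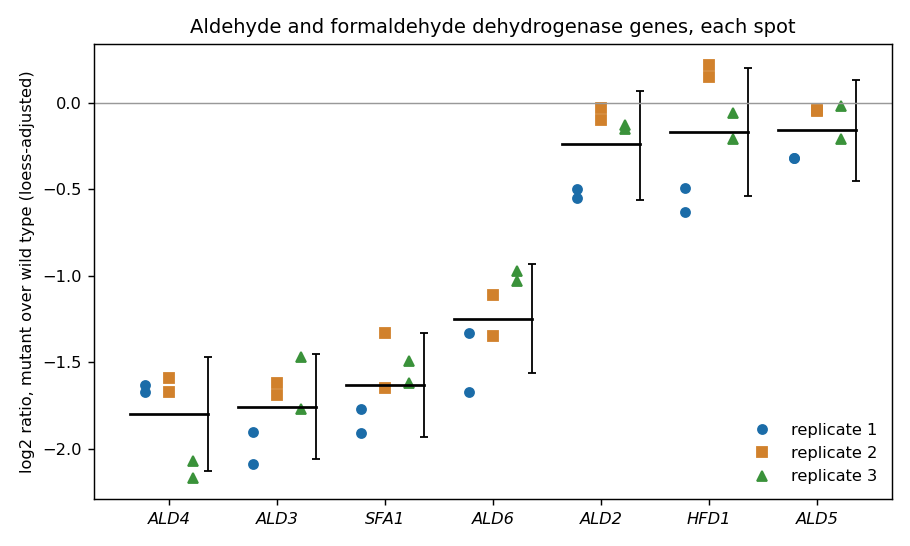
Loess-adjusted log2 ratio of each spot of the 7 genes, mutant over wild type, by array (symbols), with the mean over arrays (bar) and limma's 95% interval (whisker), ordered by the mean. The spots of ALD4, ALD3, SFA1 and ALD6 lie at or below -0.97, and the spots of ALD2, HFD1 and ALD5 at or above -0.63.

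Ordered by mean, the 7 genes ran from ALD4 through ALD3, SFA1, ALD6, ALD2 and HFD1 to ALD5. Neighbours in this order overlapped in their array values except at 1 place, between ALD6, whose highest array was -1.0, and ALD2, whose lowest was -0.53. Set side by side within each array, ALD3 was below SFA1 on all 3, with SFA1 minus ALD3 at 0.13 ± 0.06 (SD, n = 3), and ALD2 was below ALD5 on all 3, with ALD2 minus ALD5 at -0.09 ± 0.10 (SD, n = 3). ALD2 minus ALD5 was only -0.03 on replicates 2 and 3, while the spots of ALD5 differed by up to 0.19 on 1 array. With medians of blocks of spots also subtracted after loess, SFA1 was lower than ALD3, at -1.76 against -1.70. The places of ALD4 and HFD1 were not steady across the arrays either. ALD4 minus ALD3 was 0.35, 0.03 and -0.50 on replicates 1, 2 and 3, and HFD1 minus ALD5 was -0.24, 0.22 and -0.02, so both change sign. These differences were not tested.

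The channel signals show how bright these genes were, and they were recovered from the ratios, so their common factor carries error. They lack the loess adjustment, so their gaps between channels are wider than the adjusted fold changes given above. For ALD3 the deposited log2 ratios were -2.99, -2.87 and -3.01, against adjusted ratios of -2.0, -1.66 and -1.62. ALD3 had wild-type signals of 15585, 11431 and 10369 on the 3 arrays and mutant signals of 1959, 1561 and 1283. SFA1 went from 14259, 9852 and 7099 in the wild-type channel to 1997, 1522 and 972 in the mutant channel. For both genes the mutant signal still stood above that of 83.3% or more of the spots of its channel on every array, so the lower transcripts remained measured well above the dim end of the arrays.

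ALD4 had wild-type signals of 4256, 12242 and 5419 and mutant signals of 752, 1695 and 564. On replicate 3 its mutant signal was brighter than 18.2% of spots, against 90.9% on replicate 2. An error in the recovered factor would shift such shares. With signals recovered from each array alone the ALD4 mean was -2.08 (limma, adjusted p = 0.00576), against -1.80 in the reported setting. ALD6 had 9788, 3413 and 2388 in the wild-type channel and 1733, 736 and 638 in the mutant channel, the latter brighter than 89.9%, 30.9% and 34.7% of spots. Whether a signal floor held up the mutant values of ALD4 and ALD6 where they were dim was not tested. ALD2 had wild-type signals of 882, 1477 and 1300, near the channel medians of 859, 1602.5 and 1026. ALD5 had wild-type signals of 1267, 1749 and 1347 and HFD1 had 879, 2543 and 1193. These 3 genes were thus brighter than 43.2% to 79.5% of wild-type spots, in the middle of the channel. Background handling is not given in the sources used here, so a ratio near 0 at such a signal may be held there by background, which was not tested.

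**Figure D3:**
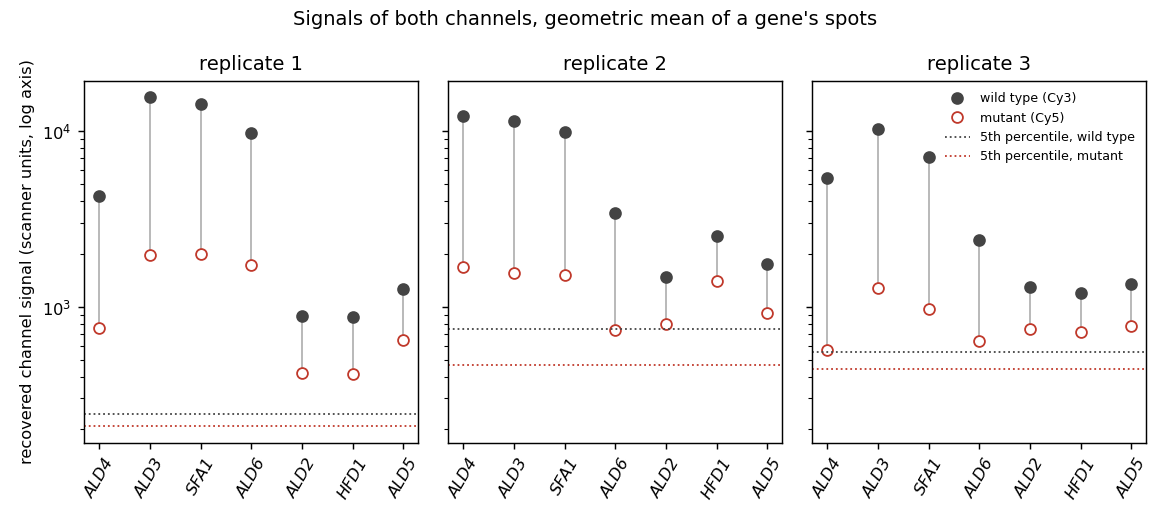
Recovered signals, without the loess adjustment, of the wild-type (filled) and mutant (open) channels of the 7 genes on each array. The log axis shows the geometric mean of a gene's spots, with the 5th percentile of all spots in each channel (dotted). ALD4, ALD3, SFA1 and ALD6 span the widest gaps between the channels, and ALD2, HFD1 and ALD5 have narrower gaps, such as 882 against 420 for ALD2 on replicate 1.

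The genes around these enzymes were described with 11 lists of 84 genes in all, each of them measured. Of the 84, 3 genes were called lower and 2 higher, where the shares over all genes were 1.99% and 0.487%. An unadjusted p under 0.05 was found for 24 of the 84, against 1090 of all 5539 genes (19.7%). The median of the 84 was -0.04, against -0.01 over all genes. Of 11 genes between pyruvate and acetyl-CoA, PDC1, the main pyruvate decarboxylase gene and thus a source of acetaldehyde, rose with ratios of 0.80, 1.02 and 1.13 (mean 0.98 ± 0.13; limma, adjusted p = 0.00569). PDC6, a minor pyruvate decarboxylase gene, rose with 1.26, 1.5 and 1.34 (mean 1.37 ± 0.12; limma, adjusted p = 7.41e-04). With median centring in place of loess PDC1 had 0.33 and did not pass (limma, adjusted p = 0.145), while PDC6 had 0.77 and passed (limma, adjusted p = 6e-05). On the deposited scale PDC1 had -0.31 and PDC6 0.13, neither passing. The signals of PDC1 were 60637, 62306 and 62861 in the wild-type channel, close to 65535, the highest whole number in any ratio; whether they were saturated was not tested.

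PDA1, which encodes a subunit of the pyruvate dehydrogenase complex, fell (-0.60 ± 0.12; limma, adjusted p = 0.0473), but passed in only 10 of the 22 alternatives judged at an adjusted p under 0.05. Among the 12 others were those without replicate 2 (limma, adjusted p = 0.15) and without replicate 3 (limma, adjusted p = 0.109). With the value first used in recovering the signals, a log2 SD of 0.35 between paired spots, PDA1 had an adjusted p of 0.0557 in limma. The other 8 genes of that list did not pass, and its median was -0.04. Of its 11 genes 6 had an unadjusted p under 0.05: PDC1, PDC6, PDA1, PDB1 (-0.28), LAT1 (-0.33) and LPD1 (-0.43). PDB1, LAT1 and LPD1 were below 0 on every array. Among the 8 that did not pass were ACS1 and ACS2, the acetyl-CoA synthetase genes that use acetate, the product of the acetaldehyde dehydrogenases.

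Of 9 alcohol dehydrogenase genes, ADH6, which encodes an NADPH-dependent enzyme that reduces aldehydes to alcohols, fell with ratios of -2.04, -1.61 and -1.72. Its mean was -1.79 ± 0.14 (limma, adjusted p = 2.51e-04), and the other 8 genes did not pass (list median 0.06). Of the 9 genes 2 had an unadjusted p under 0.05. Neither formaldehyde partner of SFA1 passed in limma, nor at an unadjusted p under 0.05: YJL068C, the S-formylglutathione hydrolase gene, had a mean of 0.01 ± 0.18 and FDH1, a formate dehydrogenase gene, one of 0.08 ± 0.12. YJL068C stood at -0.54 on replicate 1 and at 0.26 and 0.32 on replicates 2 and 3.

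None of the 4 other genes of the aldehyde dehydrogenase superfamily passed in limma (UGA2, PUT2, MSC7 and PRO2; median -0.22; 0 with an unadjusted p under 0.05), where the smallest p-values were those of UGA2 (-0.29), for succinate semialdehyde, and PRO2 (-0.35), of proline synthesis. Among 9 polyamine and pantothenate genes around ALD2 and ALD3 none passed (median -0.20; 0 with an unadjusted p under 0.05), with SPE1 at -0.23 and SPE3 at -0.21. Around HFD1, none of 9 genes of long-chain bases and fatty acid activation passed (median -0.16; 2 with an unadjusted p under 0.05, LCB5 at -0.40 and FAA2 at 0.33). Nor did any of 7 genes of aromatic and ubiquinone precursors (median -0.30; 3 with an unadjusted p under 0.05, among them COQ1 at -0.60 and COQ5 at -0.52). Of 12 other genes that supply NADPH none passed (median 0.03; 3 with an unadjusted p under 0.05); GND1, for 6-phosphogluconate dehydrogenase, had -0.72 ± 0.15 (limma, adjusted p = 0.0532), passing in 8 of those 22 alternatives, and SOL4 had 0.44.

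Of 10 candidate regulators STB5, whose product activates genes that supply NADPH, fell with ratios of -2.14, -1.59 and -1.64 (mean -1.79 ± 0.15; limma, adjusted p = 4.06e-04). The recovered wild-type signals of STB5 were 14070, 15324 and 11947, brighter than 98.5% or more of spots on each array. The gene next to STB5 along the chromosome is OYE2, which had -2.45. Whether the STB5 spots read OYE2 transcripts was not tested, so the decrease may not be that of STB5 itself. The other 9 regulators did not pass, YAP1 included, and the list median was -0.05. Of the 10 regulators 5 had an unadjusted p under 0.05: STB5, YAP1, MSN4 (0.42), CAT8 (0.52) and HAP4 (0.51). MSN4 and HAP4 were above 0 on every array, and CAT8 stood at -0.1 on replicate 2. Markers of both mating types were looked at in case the strains differed in type. None of the 6 genes of the a type (median 0.13; MFA2 at 0.54, AGA2 at -0.49) or of the 5 genes of the alpha type (median 0.29; MF(ALPHA)1 at 0.20, AFB1 at 0.39) passed in limma; 2 and 1 of them had an unadjusted p under 0.05.

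**Figure D4:**
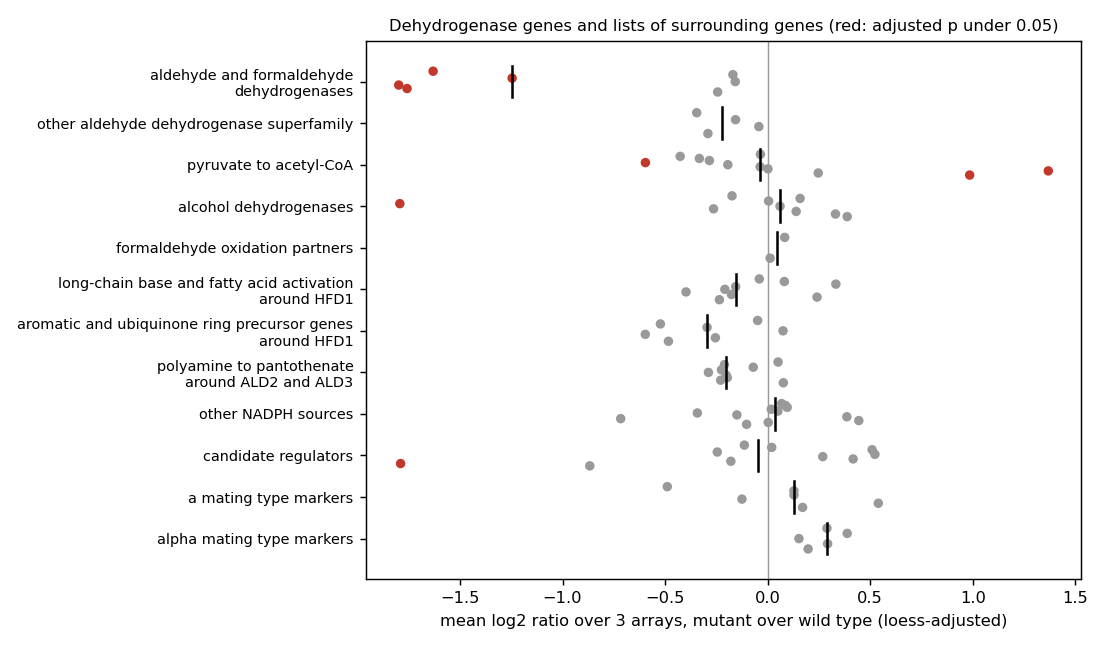
Mean log2 ratio over 3 arrays, mutant over wild type, of the 7 dehydrogenase genes and of the 11 lists of surrounding genes (points; red at an adjusted p under 0.05), with each list's median (black bar). ADH6 and STB5, at -1.79 each, lie beside the 4 lower dehydrogenase genes, while 79 of the 84 genes in the lists are grey.

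Of the 14 places next to the 7 genes along the chromosomes, 11 held a measured gene that is not one of the 7. In limma 0 of these 11 passed, 4 had an unadjusted p under 0.05, and their means ran from -0.49 to 0.43. By Euclidean distance between the ratios of the 3 arrays, the genes nearest to ALD3 were ADH6 (0.13), STB5 (0.15) and SFA1 (0.23). The nearest to SFA1 were ALD3 (0.23), IKS1 (0.28) and ADH6 (0.29), and the nearest to ALD4 were AIM46 and ADH6 (0.56 each) and SFA1 (0.61). The nearest to ALD6 were PRX1 (0.12), a mitochondrial peroxiredoxin gene, SOD2 (0.15), the mitochondrial superoxide dismutase gene, and YGP1 (0.27). ALD2 lay nearest to TMN3, CDC60 and SOL1, ALD5 to COQ9, MET3 and STE13, and HFD1 to KIP3, HSE1 and YRB2, all at 0.10 or less; many genes lie that close to 0, and 3 arrays give such a likeness little content.

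The 4 decreases kept their direction in all 23 alternative settings and passed in 22 of them. The exception was the unmoderated one-sample statistic, where 0 of 5539 genes passed. With that statistic 541 of the 5539 genes had an unadjusted p under 0.05, ALD3, ALD4, ALD6 and SFA1 among them. ALD2, ALD5 and HFD1 passed on the deposited scale, on which 75.7% of all genes were called lower, and in no other setting.

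**Figure D5:**
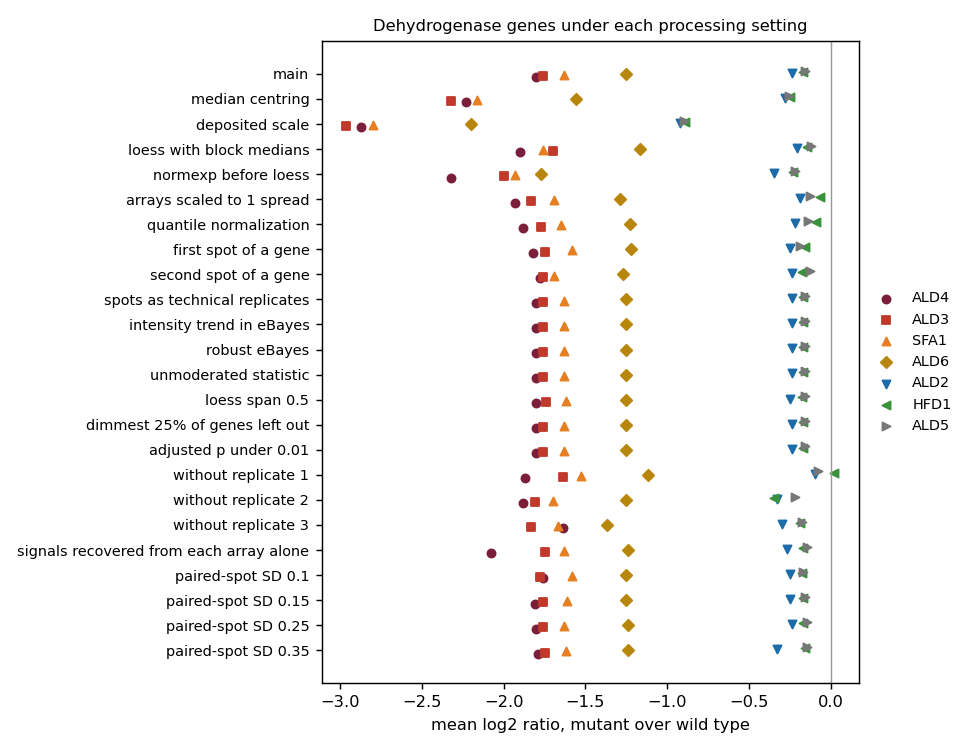
Mean log2 ratio of the 7 genes, mutant over wild type, under the reported setting (top) and 23 alternatives. ALD4, ALD3, SFA1 and ALD6 stay at or below -1.12 throughout, and ALD2, HFD1 and ALD5 stay at or above -0.35 except on the deposited scale.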

How the data were processed

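Per the labels, each array held mutant RNA in Cy5 and wild-type RNA in Cy3, and no batch is named. The authors deposited 1 log2 ratio per spot; how they scanned, background-corrected or normalized is not stated in the labels. As powers of 2, the values of 100% of spots were quotients of whole numbers (relative tolerance 1e-13). Both signals were recovered from these up to a common factor, settled with the paired spots and the other arrays. The log2 SD assumed between paired spots was first 0.35. It was changed to 0.2 after the genes had been fitted, when 5 values (0.1, 0.15, 0.2, 0.25 and 0.35) were compared on simulated signals with the calls from the arrays also in view. Ratios were adjusted within arrays by loess (span 0.3) and averaged over a gene's spots; 1918 spots without a gene name entered only the loess. Genes were tested with limma 3.58.1 (R 4.3.3), two-sided, with Benjamini-Hochberg adjustment over 5539 genes. The variance of a gene was moderated toward that of all genes, which supplied 6.11 of the 8.11 degrees of freedom. Recovery and test were tested on simulated data. A minority of signals came back with a wrong factor and the test missed most of the smallest changes, so a gene that did not pass may have changed. The simulated signals were built on the recovered ones. They therefore share the assumptions of the recovery and cannot measure its full error on the arrays. The 7 genes, the lists and the loess step were chosen with earlier results of these data known. The text names the 7 genes, YAP1 and each list's called genes (otherwise its 2 of smallest p). It also names the 3 genes nearest to each of the 7. OYE2, ACS1, ACS2, PUT2, MSC7, PDB1, LAT1, LPD1, MSN4, CAT8 and HAP4 were added after their values were seen. A RefSeq table of the R64 assembly matched 5534 genes and was used for names and gene order only. The alternatives varied the normalization, background, spots, variance model, filter, threshold and arrays. The number of arrays limits the precision. Figures were drawn with matplotlib 3.10.9.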

Additional observations from a re-analysis of the deposited data

How the results depend on the processing

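The decreases of ALD3, ALD4, ALD6 and SFA1 passed in every alternative but the unmoderated statistic, where the means were the same (-1.76, -1.80, -1.25 and -1.63) and none passed, which leaves 0 lower among the 7 genes and 0 lower and 0 higher among all. On the deposited scale all 7 genes passed as lower, ALD2 with -0.92, ALD5 with -0.90 and HFD1 with -0.89, and the others with -2.96 for ALD3, -2.87 for ALD4, -2.80 for SFA1 and -2.20 for ALD6, among 4191 lower and 1 higher genes. HFD1 ran from -0.35 without replicate 2 to 0.02 without replicate 1, where its sign turned. Counts over all genes moved more: median centring gave 984 lower and 237 higher, normexp before loess 203 and 86, arrays scaled to 1 spread 192 and 59, quantile normalization 265 and 125, spots as technical replicates 208 and 67, and an adjusted p under 0.01 59 and 9. Leaving out 1 array gave 106 to 183 lower genes and 35 to 71 higher ones, the most without replicate 1, and 4 of the 7 genes each time. Signals recovered from each array alone, an alternative chosen after seeing the data, gave 15 higher genes. The paired-spot SD of 0.2 used in the recovery was also chosen after seeing the data, calls included. In place of its 110 lower and 27 higher genes, 0.1 gave 113 and 39, 0.15 gave 102 and 27, 0.25 gave 105 and 25, and 0.35, the value first used, gave 100 and 23. The same 4 dehydrogenase genes passed at each value and YAP1 at none, while PDA1 passed at 0.1, 0.15 and 0.2 but not at 0.25 (limma, adjusted p = 0.0504) or 0.35. The difference between ALD3 and ALD2 was -2.04 with median centring and on the deposited scale, -1.65 with normexp, -1.64 with scaling and -1.42 with a paired-spot SD of 0.35; the causes were not tested. No paired analysis was possible because each array already holds both strains and gives 1 ratio.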
